A study of Laxus oneistus with 16 samples.

Results

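Intermediate filaments are rope-like cytoskeletal polymers that give animal cells mechanical strength. In *C. elegans*, the B-type protein IFB-1 assembles together with A-type proteins such as IFA-1. In the epidermis, filaments that contain IFB-1 belong to the attachments that anchor the body wall muscle to the cuticle. The transcripts described here are the 4 loci of the ectosymbiotic nematode *Laxus oneistus* that the study matched to *ifb-1* (3 loci) and to *ifa-1-1* (1 locus), out of 27984 transcripts. The loci are *ifb-1* (TRINITY_DN94423_c2_g1_i3_9dedup, here DN94423), *ifb-1* (TRINITY_DN53316_c0_g1_i1_4dedup, DN53316), *ifb-1* (TRINITY_DN83970_c0_g1_i1_9dedup, DN83970_c0_g1) and *ifa-1-1* (TRINITY_DN53608_c0_g1_i2_4dedup, DN53608). They were chosen by mean abundance, as members of the study's list of top transcripts (over all libraries) and top proteins (hypoxic and anoxic worms). By mean transcript level, not corrected for length, DN83970_c0_g1 had only rank 8261 of 19093 tested transcripts. The study ordered transcripts by log2TPM, which is corrected for length. The rank given here therefore does not by itself show how the locus came onto that list. The study names *ifb-1* for the comparison of anoxic sulfidic with hypoxic worms. Their mean levels and their differences between these incubations are therefore given as a description, with no p-value. For these incubations the number of loci past the limits is printed only beside that over all transcripts, and nothing is read from it. All 4 passed the filter on low counts. Names rest on matches in other species, the transcriptome was assembled *de novo*, and no genome position or transcript sequence was used here.

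Wild-caught adult worms, each carrying its bacterial coat of *Candidatus* Thiosymbion oneisti, were incubated in the dark for 24 h in batches of 50, and rRNA-depleted RNA of whole worms was sequenced. The incubations were in air-bubbled seawater (O, 6 libraries), in hypoxic seawater open to the air (H, 3 libraries), in anoxic seawater under nitrogen (A, 4 libraries, numbered 1, 2, 3 and 5) and in anoxic seawater with sulfide added (AS, 3 libraries). The labels give 11 µM sulfide for AS, which lies under the upper limit that the study's main text states. Each library is a pool of 50 worms, so p-values measure the spread between pools. In whole worms, fewer cells of a type and less RNA per cell cannot be told apart. The files hold the authors' RSEM expected counts, with totals of 9032241 to 18627740 per library. Levels are CPM (counts relative to the TMM-scaled library size, in parts of 1e+06) and are not divided by transcript length, so they compare one locus between libraries and not one locus with another. In 5 libraries (A replicates 3 and 5, O replicates 2, 3 and 5), 5680 transcripts, each with a total of less than 10 reads over the remaining 11 libraries, made up 0.572% to 1.45% of the counts, against at most 0.00516% per library in those 11.

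The AS libraries held the lowest levels of *ifa-1-1* (DN53608) and of the *ifb-1* locus DN94423, while the *ifb-1* locus DN53316 overlapped between all incubations and DN83970_c0_g1 varied with the set of libraries. The *ifa-1-1* locus DN53608, the A-type member, had rank 20 of 19093 tested transcripts by mean CPM, an order that is not corrected for length. It was at 1874, 2075 and 1609 CPM in AS, at 3065, 2418 and 2201 in H, at 2713, 2162, 2396 and 2637 in A, and between 2171 and 3149 with a median of 2443 in O. All 3 AS libraries were below all 13 others, whereas O, H and A overlapped, with means of 2554 ± 394 (SD, n = 6), 2562 ± 449.6 (SD, n = 3) and 2477 ± 249.6 (SD, n = 4) against 1853 ± 233.6 (SD, n = 3) in AS.

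The *ifb-1* locus DN94423 encodes a B-type filament protein by its name and had rank 37. It was at 998.3, 1137 and 734.6 CPM in AS, at 3133, 2050 and 1785 in H, at 2219, 1445, 1569 and 1853 in A, and between 1430 and 2235 with a median of 1609 in O. Here too, the 3 AS libraries were below the 13 others. The means were 956.6 ± 204.4 (SD, n = 3) in AS, 1701 ± 314.4 (SD, n = 6) in O, 1772 ± 343.6 (SD, n = 4) in A and 2323 ± 713.9 (SD, n = 3) in H, and O, A and H overlapped. H replicate 1 was the highest of all libraries. Among all 19093 tested transcripts, 1.09% had every AS library below every other library, which is the background for DN94423 and DN53608. That count includes the comparison with H that the study used.

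The other *ifb-1* loci did not separate in this way. DN53316, of rank 69, was at 907.1, 753.2 and 631.5 CPM in AS, at 1016, 793.5 and 757.1 in H, at 1023, 842.2, 939.4 and 1447 in A, and between 841.7 and 1236 with a median of 953.5 in O. Each group overlapped with each other group. This was the steadiest of the 3 *ifb-1* loci, with a coefficient of variation of 20.8% over the 16 libraries against 33.3% for DN94423 and 94.3% for DN83970_c0_g1.

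DN83970_c0_g1 had the fewest reads of the 4, with rank 8261. It was at 5.323, 7.326 and 5.979 CPM in AS, at 24.13, 15.3 and 11.09 in H, at 14.12, 11.81, 35.14 and 82.68 in A, and between 6.551 and 40.91 with a median of 17.31 in O. Its highest levels under A and O were in the 5 libraries with additional transcripts, at 35.14 and 82.68 CPM against 11.81 and 14.12 in the other A libraries, and at 20.02 to 40.91 against 6.551 to 14.6 in the other O libraries. The locus was the only one of the 4 that was higher in each of these libraries than in the others of the same incubation, and the part of this set of libraries in its values was not tested beyond the fits within the 11 libraries given below. Expected counts of all 4 loci had a fractional part in 16 of 16 libraries, so reads were shared with similar transcripts.

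**Figure D1:**
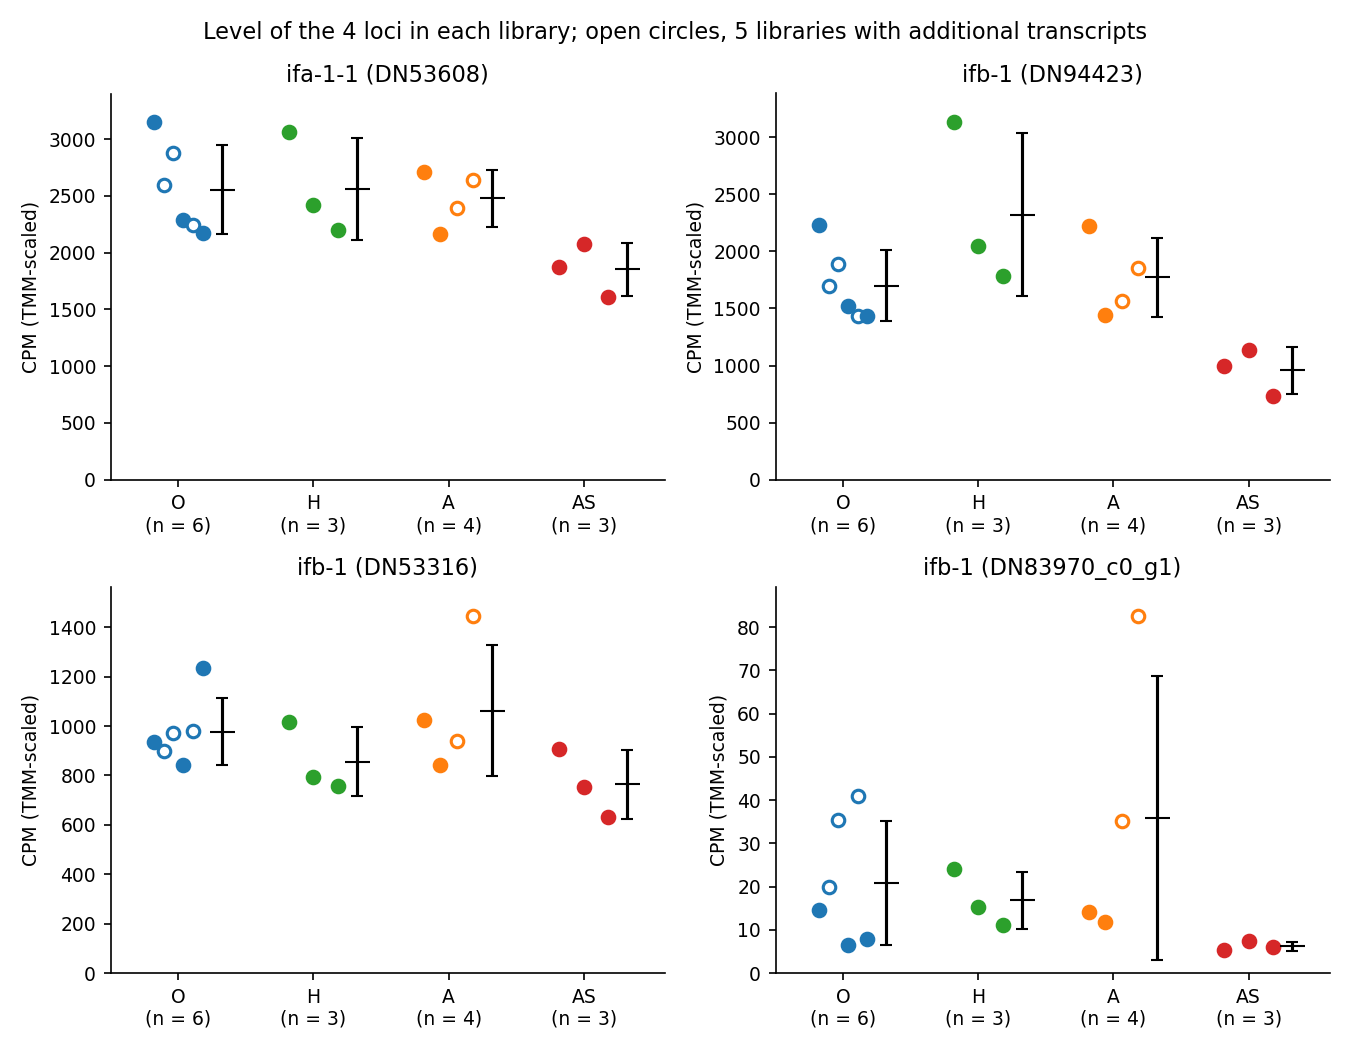
CPM of the 4 loci (vertical axes, from 0) in each library of O, H, A and AS, with the mean and SD as a bar beside the points. Open circles are the 5 libraries with additional transcripts. The AS libraries of ifa-1-1 (DN53608), at 1609 to 2075, and of ifb-1 (DN94423), at 734.6 to 1137, lie below all others, and the open circles lie above the filled ones of the same incubation for ifb-1 (DN83970_c0_g1).

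The first comparison, of AS with A, asks what the added sulfide changes when oxygen is absent in both. All 4 loci had lower means in AS, but 0 of the 4 passed the limits (Benjamini-Hochberg FDR of at most 0.05 over all tested transcripts and at least 1.5-fold, edgeR's quasi-likelihood test). In the same fit 0 of 17324 transcripts passed (0%), and 2358 had an unadjusted p under 0.05. DN94423 was at 0.535 times its level in A (log2 fold change -0.90, SE 0.239, FDR 0.172). DN53608 had a smaller difference (-0.43, SE 0.172, FDR 0.292), as had DN53316 (-0.49, SE 0.212, FDR 0.333). DN83970_c0_g1 had the largest (-2.55, SE 0.609, FDR 0.156), and within the 11 libraries without the additional transcripts it was -1.06. In those 11 libraries DN94423 was at -0.94, DN53608 at -0.40 and DN53316 at -0.29. Every AS library was below every A library for DN94423, DN53608 and DN83970_c0_g1, against 5.39% of all tested transcripts. DESeq2, which called 431 transcripts in this comparison (2.49%), called DN94423 (-0.90, adjusted p = 0.0126) and DN83970_c0_g1 (-2.54, adjusted p = 0.0172).

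In the comparison of air-saturated with sulfidic worms (O and AS), which shares the AS libraries with the comparison above, 0 of the 4 loci were called, whereas 0.571% of 19093 transcripts were (109 called, 3176 with an unadjusted p under 0.05). DN94423 was 1.78-fold higher in O (log2 fold change 0.83, SE 0.214, edgeR FDR 0.0996). DN53608 was 1.38-fold higher (0.46, SE 0.154, edgeR FDR 0.222), under the fold limit. For both, every O library was above every AS library, against 3.13% of all tested transcripts. DN53316 (0.36, SE 0.181) and DN83970_c0_g1 (1.75, SE 0.670) overlapped between these incubations, and the latter was at 0.56 when a batch term separated the 5 libraries. Within the 11 libraries DN94423 was at 0.86 and DN53608 at 0.46. DESeq2 called DN94423 (0.84, adjusted p = 0.00347) among 557 transcripts (2.92%).

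The comparisons of O, H and A differ in oxygen and hold no added sulfide. None of the 4 loci was called between A and H, O and H, or O and A, where 0.104%, 0% and 0.131% of all transcripts were called. With DESeq2, the count was also 0 in each of these comparisons, where it called 0.779%, 0.649% and 0.388%. An unadjusted p under 0.05 was found for 2472 transcripts between O and H. The differences of DN53608 were close to 0, at -0.05 for A minus H (95% interval -0.42 to 0.32), -0.00 for O minus H (-0.32 to 0.32) and 0.04 for O minus A (-0.25 to 0.34). DN94423 was lower than in H by 0.39 on the log2 scale in A (interval -0.89 to 0.12) and by 0.45 in O (-0.88 to -0.02, edgeR FDR 0.384), and O and A differed by -0.06 (-0.46 to 0.34). DN53316 was at 0.31 for A minus H (-0.14 to 0.77), and at 0.19 and -0.12 for O minus H and O minus A. DN83970_c0_g1 was at 1.09 for A minus H (-0.13 to 2.32), which turned to -0.38 in the 11 libraries, and at 0.31 for O minus H, which turned to -0.79. When O and H were set together against A and AS, 0.665% of transcripts were called and none of the 4 loci was. DN94423 was then at 0.61 (SE 0.153), just over the fold limit and not past the FDR limit. DESeq2 called it (0.62), with 1.42% of all transcripts. This comparison includes H against AS, for which the study names *ifb-1*, while O minus A of DN94423 was -0.06. The value of DN94423 is therefore a description only, with no p-value. DN53608 was at 0.26 and DN53316 at 0.02. The fitted value of DN83970_c0_g1 was 0.33, whereas its mean CPM ran the other way, at 18.87 with oxygen and 21.07 without (each the mean of 2 incubation means), so no direction is given.

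AS and H are the incubations for which the study names *ifb-1*, and their values are a description only. The log2 fold change of AS minus H was -1.29 for DN94423 (SE 0.254), -1.45 for DN83970_c0_g1 (SE 0.616), -0.48 for DN53608 (SE 0.182) and -0.18 for DN53316 (SE 0.224). Of the 4 loci, 1 (DN94423) was past the limits, as were 1.98% of all transcripts (343). With a single library left out, the value of DN94423 was -1.31 (AS replicate 1 left out), -1.13 (AS replicate 3), -0.99 (H replicate 1) and -1.45 (H replicate 3). In these fits DN94423 was not past the limits, and only 0, 0, 4 and 45 of all transcripts were. It was past them without AS replicate 2 (-1.44) and without H replicate 2 (-1.38), where 620 and 270 of all transcripts were.

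**Figure D2:**
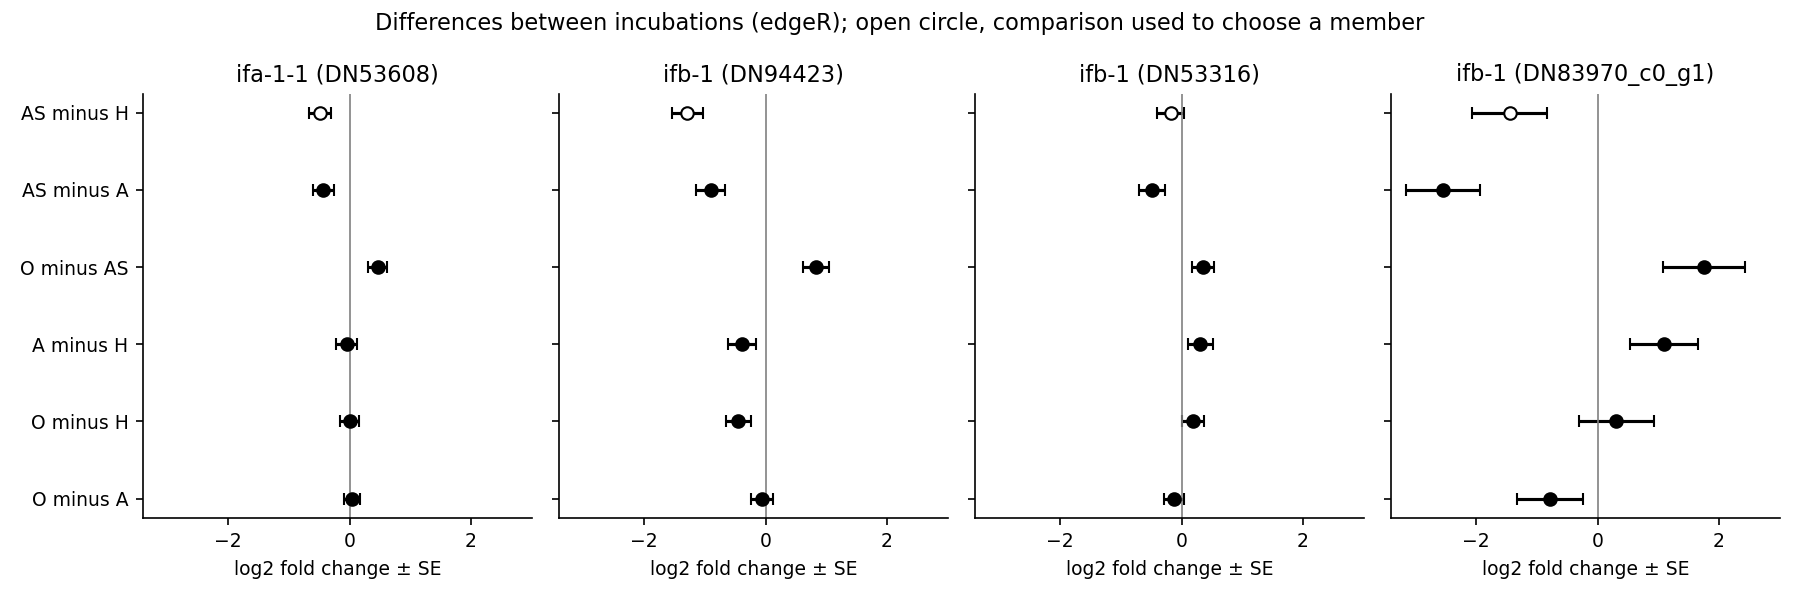
Log2 fold change (horizontal axis, bar ± SE) of the 4 loci in 6 comparisons between incubations. The open circle is AS minus H, which is shown as a description only. For ifb-1 (DN94423) the values with AS are -1.29, -0.90 and 0.83, and those without AS lie between -0.45 and -0.06.

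The loci were next set against each other within libraries. A ratio of counts in the same library does not depend on the scaling between libraries. These ratios were chosen after the levels were seen and are given without a test. How often ratios of other transcripts separate the incubations was not computed, so these separations have no background share. Those of AS from H include the comparison that the study used. The count of DN94423 was 0.5327, 0.548 and 0.4566 times that of DN53608 in the AS libraries. It was 1.022, 0.8477 and 0.8111 times in H, 0.818, 0.6684, 0.6549 and 0.7026 times in A, and 0.6406 to 0.7096 times in O. The AS libraries were below all others, the H libraries were above all others except A replicate 1, and the O libraries lay close together, at 0.6638 ± 0.02391 (SD, n = 6). In AS, the deficit of DN94423 was thus larger than that of DN53608.

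The count of *ifa-1-2* (TRINITY_DN94755_c1_g1_i4_9dedup, DN94755), a further A-type locus, to that of DN53608 had no such pattern. It was 0.6892 to 0.736 in AS, compared with 0.6786 to 0.7673 in H, 0.691 to 0.7761 in A and 0.5816 to 0.7063 in O, with overlap between AS and each other incubation. The ratio of the *ifb-1* locus DN53316 to DN53608 was 0.363 to 0.484 in AS, compared with 0.3281 to 0.344 in H, 0.3772 to 0.5488 in A and 0.2969 to 0.5695 in O. The 3 H libraries were below the AS and A libraries here. The *ifb-1* loci DN94423 and DN53316, set against each other, gave 1.1 to 1.51 in AS and 2.358 to 3.084 in H, and 1.28 to 2.169 in A and 1.157 to 2.39 in O between them.

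**Figure D3:**
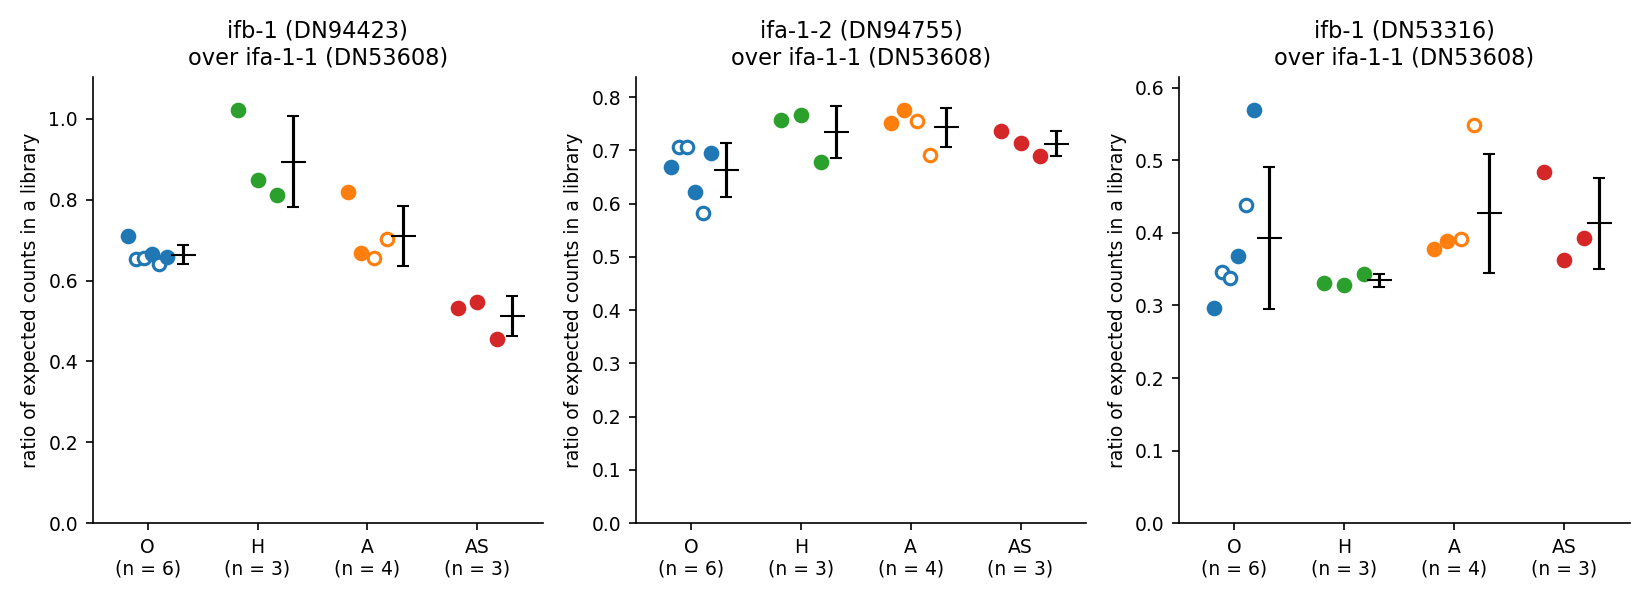
Ratio of expected counts to those of ifa-1-1 (DN53608) in the same library (vertical axes, from 0) for ifb-1 (DN94423), ifa-1-2 (DN94755) and ifb-1 (DN53316), with mean and SD. Open circles are the 5 libraries with additional transcripts. The ifb-1 (DN94423) ratio is 0.4566 to 0.548 in AS and 0.6406 to 1.022 elsewhere, whereas the ifa-1-2 ratio overlaps between AS and each other incubation.

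The closest pair of the 4 was *ifb-1* (DN94423) with *ifa-1-1* (DN53608). Over the 16 libraries, log2 CPM of DN94423 and DN53608 had a Pearson r of 0.92 and a Spearman rho of 0.93 (two-sided permutation test, p = 1e-05 for both, the smallest that 100000 permutations can give; 6e-05 adjusted over the 6 pairs). Leaving out AS replicate 3 and H replicate 1, the libraries farthest from the median of DN94423, gave r = 0.87, the 11 libraries gave 0.95, and leaving out each library in turn gave 0.88 to 0.94. On deviations from the mean of each incubation, r was 0.96 (permutation within incubations, adjusted p = 6e-05), so that both were high in the same libraries also within an incubation. Libraries of one incubation share their treatment, and they are not independent of one another in the pooled value.

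The 5 other pairs were less closely related, with r of 0.46 to 0.60. Of these, 4 had an adjusted p under 0.05 over the 16 libraries (permutation test, 0.0284 to 0.0492), and DN94423 with DN53316 did not (r = 0.46, rho = 0.38, adjusted p = 0.0747). Among the r of a locus with all 19092 other tested transcripts, the r of these 4 pairs were in places 221 to 1855. With each library left out in turn, DN83970_c0_g1 held in 14 of 16 cases with DN53316 and 13 with DN53608. It held in 4 with DN94423, and DN53316 with DN53608 held in 3. On deviations from the incubation means, none of the 5 held (r 0.24 to 0.40, adjusted p 0.267 to 0.374). Without A replicate 5 and AS replicate 3, the libraries farthest from the median of DN53316, its r fell to 0.29 with DN53608 and 0.25 with DN83970_c0_g1. With only A replicate 5 left out, r was 0.54 with DN53608 and 0.39 with DN83970_c0_g1. With only AS replicate 3 left out, it was 0.32 and 0.54. Leaving out the most extreme libraries narrows the range of a locus, which by itself can lower r. Without AS replicate 3 and H replicate 1, r of DN53316 with DN94423 was 0.18. DN83970_c0_g1 differed by the set of libraries. Within the 11 libraries without additional transcripts it had r = 0.91 with DN94423 (adjusted p = 0.00054) and r = 0.84 with DN53608 (adjusted p = 0.00206, permutation tests), against 0.52 and 0.60 over all 16. With DN53316, its r was 0.32 in the 11 libraries (permutation test, adjusted p = 0.347) against 0.60 over all 16. Permutations in the 11 libraries ran across incubations, so differences between incubations, AS against H among them, enter these p-values. On deviations from incubation means over all 16, r of DN83970_c0_g1 was 0.24 with DN94423 and 0.38 with DN53608. No such value was computed for the 11 libraries. The 5 other libraries are too few for a value of their own.

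**Figure D4:**
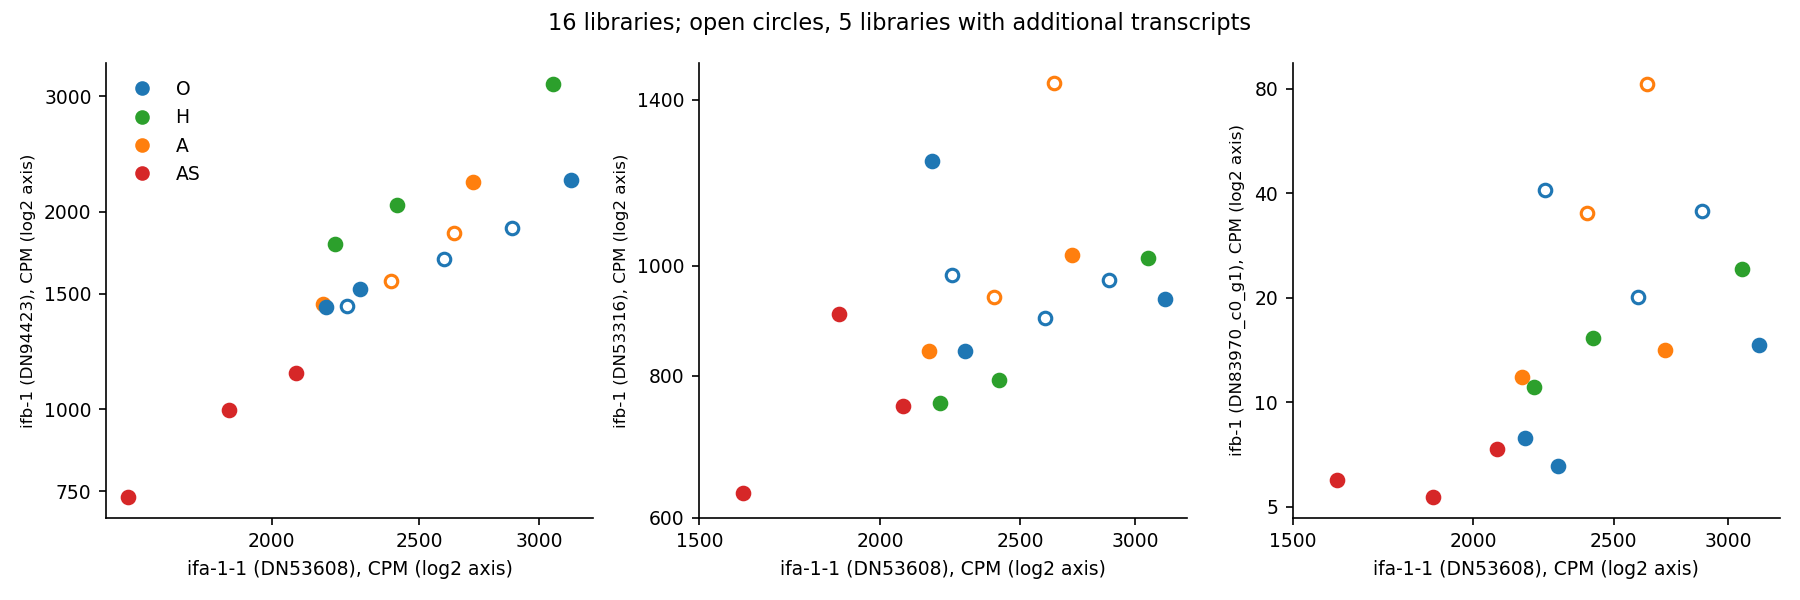
CPM of each ifb-1 locus (vertical axes, log2) against ifa-1-1 (DN53608, horizontal axes, log2) in the 16 libraries, coloured by incubation. Open circles are the 5 libraries with additional transcripts. The points of ifb-1 (DN94423) follow a line (r = 0.92), those of ifb-1 (DN53316) scatter (r = 0.52), and the open circles of ifb-1 (DN83970_c0_g1) lie mostly above the filled ones.

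The study's table lists 3 further loci, all matched to A-type genes. *ifa-1-2* (DN94755, rank 36) averaged 1323 ± 192.3 CPM (SD, n = 3) in AS, and 1891 ± 415.6 (SD, n = 3) in H, with 1837 ± 148.5 (SD, n = 4) in A and 1701 ± 334.7 (SD, n = 6) in O. *ifa-1* (TRINITY_DN92112_c0_g1_i4_9dedup) averaged 128.6 ± 28.87 CPM in AS and 189 ± 24.12 in H, with 147.4 ± 28.09 in A and 149.9 ± 20.31 in O (SD, with the same n). *ifa-1* (TRINITY_DN83970_c0_g2_i1_9dedup) carries the same assembly component number as the third *ifb-1* locus, and its highest levels were also in the 5 libraries with additional transcripts (50.51 to 169.1 CPM against 10.17 to 22.34 in the 11 others). None of the 3 was called in any of the 7 comparisons by edgeR, where 0% to 1.98% of all transcripts were. DESeq2 called only the last of them, in AS minus A (-2.52, adjusted p = 0.0364, with 2.49% of all transcripts), where it was at -0.59 within the 11 libraries. All 7 filament loci had a negative AS minus A value, with a median of -0.49 and a range of -2.55 to -0.21, where 52% of all tested transcripts were below 0 and their median was -0.017. All 7 had a positive O minus AS value (median 0.46, range 0.22 to 1.89), as were 53.8% of all tested transcripts, with a median of 0.038. No direction of these 14 values changed under the alternatives tried. The loci vary together and some may share reads, so the counts are not 7 separate observations.

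Of 19092 other tested transcripts, DN94423 was the one whose log2 CPM was most correlated with that of DN53608 over the 16 libraries, and *ifa-1-2* (DN94755) came second, both at r = 0.92. Seen from DN94423, DN53608 was in place 4 and DN94755 in place 15 (r = 0.89). Among 136 named loci outside the filament family, those most like both DN94423 and DN53608 were *mdh-1*, a malate dehydrogenase (r = 0.86 and 0.78), and *fum-1*, a fumarase (0.83 and 0.71). For DN53316 they were *cal-5*, a calmodulin-related gene (0.85), and *nex-2*, an annexin gene (0.69). For DN83970_c0_g1 they were *gpd-3*, a glyceraldehyde-3-phosphate dehydrogenase (0.87), and *hsp-3*, a chaperone gene (0.83), and its closest transcript of all was the *ifa-1* locus with the same component number (r = 0.94). These values are descriptions over libraries that share treatments and the 2 library sets.

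Muscle, cuticle and yolk loci of the same table were read beside the filament loci. None of 18 muscle thick filament loci and none of 15 thin filament and actin-binding loci was called in any comparison. Over all transcripts, 0% to 1.98% were called by edgeR, so 0 calls among so few loci do not set them apart. Their median log2 fold changes for AS minus A were 0.29 and 0.05, against -0.49 for the 7 filament loci. For AS minus H the medians were 0.39 and 0.17 against -0.54. Among 5 cuticle and extracellular matrix loci, 1 was called lower in AS than in H, where 1.98% of all transcripts were called in either direction. It was *ig-h3-like-2* (TRINITY_DN54386_c1_g1_i1_4dedup, -1.04, SE 0.223, edgeR FDR 0.0399), which is named after an extracellular adhesion protein of vertebrates. None of the 3 yolk protein loci was called, with medians of -1.24 for AS minus H and -0.79 for AS minus A. Summed over its loci, the thick filament list was at 17600 to 23400 CPM in AS, and at 14000 to 21800 in H, 14100 to 23200 in A and 16000 to 21800 in O. The thin filament list was at 14300 to 20100 CPM in AS, 12300 to 17600 in H, 12000 to 20900 in A and 13900 to 17900 in O. The cuticle list was at 8430 to 9170 CPM in AS, and at 8370 to 12600 in H, 8220 to 10400 in A and 7950 to 11700 in O. The yolk list was at 5780 to 8340 CPM in AS, and at 10500 to 22800 in H, 7160 to 18000 in A and 3950 to 18300 in O. The 7 filament loci together were at 4220 to 5630 CPM in AS, and at 6480 to 9750 in H, 6300 to 8210 in A and 6250 to 8620 in O, with the AS libraries below all others. The muscle sums thus overlapped between AS and each other incubation, while the yolk sum was lower in AS than in H in all libraries. How often sums of other loci separate in this way was not computed, for the filament sum as for the yolk sum. The part of the yolk-bearing tissue in the filament values was not tested.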

How the data were processed

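The authors sequenced rRNA-depleted RNA, built a *de novo* transcriptome after removal of symbiont reads, mapped to it with bowtie2 and deposited expected counts from RSEM 1.3.1, unnormalized, for 16 libraries. The meaning of the suffixes of the transcript names is not given in the sources used here. Rounded counts went into edgeR 4.0.16 (with DESeq2 1.42.0 as an alternative, both under R 4.3.3). A transcript entered the test if 3 or more replicates of an incubation had 10 or more reads each. After TMM scaling the test was edgeR's quasi-likelihood F-test, in 1 fit of A, AS and H (10 libraries, 17324 transcripts) and 1 of all 16 libraries (19093) for comparisons with O. CPM comes from the latter. Limits were an FDR of 0.05 and 1.5-fold, those of the study's methods. SE was derived from the F statistic and intervals are 95%. Correlations used log2 CPM (prior count 2) and 100000 permutations. The calling was run on simulated data with 200 changed transcripts and a log2 change of 2. Most differences of the 4 loci were smaller, so that run does not show how such differences are called. The libraries with additional transcripts were found by rarefying each library to 9032239 counts and splitting the numbers of transcripts expected there at their widest gap. Library pairs of the same incubation differed by more than counting error (chi-square per degree of freedom 18.65 to 134.4, 27 pairs), so none was counted as 1 sample. The members, lists and tests were chosen with earlier results of these data known. Named are the 7 filament loci, the 2 most correlated named loci of each member, and called loci of each list (at most 2 per list and comparison). Alternatives were other scalings, filters, tests, sets of libraries, a replicate block and each replicate left out. Proteome data were not analysed here.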

Additional observations from a re-analysis of the deposited data

Results flagged for a closer look

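Within incubations of 4 or 6 libraries, 3 of 30 groups held a library that stood apart from the others (Dixon's ratio, 95% limit), and chance alone flags about 1 in 20 groups. *ifb-1* (DN53316) reached 1236 CPM in O replicate 6, while the 5 remaining O libraries held 841.7 to 982. The ratio of *ifb-1* (DN94423) to *ifa-1-1* (DN53608) was 0.7096 in O replicate 1, against 0.6406 to 0.6657 in the others. The ratio of *ifb-1* (DN53316) to *ifa-1-1* was 0.5488 in A replicate 5, against 0.3772 to 0.3921 in the other A libraries.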

How the results depend on the processing

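Between AS and H, where nothing is read from the count, 1 of the 7 filament loci and 343 of all 17324 transcripts were past the limits. The count was 0 with no filter on low counts (103 of 27190 transcripts), and 2 with only the compared incubations (757 of 16121), with only the 11 libraries (872 of 16966) or with a batch term for the 5 others (640 of 17324). With each replicate left out it was 0 to 1, and 0 to 620 over all transcripts. DESeq2 gave 3 in place of 0 for AS minus A, and 1 in place of 0 for O minus AS and for oxygen present minus absent. With the replicate number as a block, 1 locus (DN94423) was called for O minus AS (0.95, edgeR FDR 0.0319) and 1 for oxygen present minus absent (0.64). The calls over all transcripts went from 109 to 435 and from 127 to 199. Oxygen present minus absent includes H against AS, so nothing is read from its calls of DN94423. Of 19 pairs of libraries with the same number in different incubations, 8 had deviations correlated above 0.1 (-0.36 to 0.69, median 0.07). Of 74 pairs with different numbers, 12 had (-0.69 to 0.65, median -0.01). The numbers were not taken as a pairing in the fits reported, and whether they are one was not tested further. Of the 6 pairs of loci, 5 were correlated in the main analysis, 1 on deviations from incubation means, 3 in the 11 libraries, and 1 to 6 with each library left out. Directions changed for values near 0 and for larger values of DN83970_c0_g1. For DN53608, A minus H was 0.02 with total counts and -0.14 to 0.11 with each replicate left out. For the same locus, O minus H was 0.00 with upper-quartile scaling, 0.07 with total counts, 0.12 with the block and -0.12 to 0.15 with each replicate left out, and O minus A was -0.02 to 0.09. For DN94423, O minus A was 0.04 with the block and -0.15 to 0.07 with each replicate left out. For DN53316, O minus A was 0.11 in the 11 libraries and -0.22 to 0.06 with each replicate left out, and oxygen present minus absent was -0.05 to 0.11. For DN83970_c0_g1, A minus H (1.09 in the fit reported) was -0.38 in the 11 libraries and -0.38 with the term, O minus H (0.31) was -0.79 and -0.88, and O minus A (-0.78) was -1.08 to 0.04 with each replicate left out. The cause was not tested. Counts were high for 3 of the 4 loci, at least 7709.3 per library, and 60.2 at the lowest for DN83970_c0_g1, so the spread between libraries and not depth limits the first 3.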
